A study of Mus musculus with 208 samples.

Results

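Kcng1, Klhl1, Armcx6, Cntn6, Pcdh20 and Htr2c are 6 genes, of 39179 gene identifiers measured, that were higher with long repeats already in the striatum of young Huntington disease knock-in mice. They were chosen by their levels at 2 months, from among the genes called higher in Q175 than in Q20 or rising with repeat length at that age. They are not all of the genes so called. The data are mRNA libraries of whole striatum from heterozygous knock-in and wild-type C57BL/6 mice, 208 libraries that form 26 groups of 8 at 3 ages (2, 6 and 10 months). Each knock-in line carries 1 Htt allele with the CAG repeat length of its name (Q20, Q80, Q92, Q111, Q140 or Q175), and Q20, the reference of most comparisons, is a knock-in with a repeat in the normal range. Wild-type mice came from the cages of each line at 6 months, and from the Q20 cages alone at 2 and 10 months. By the labels, groups held 4 libraries of females and 4 of males, except Q80 at 2 months (3 and 5) and Q20 at 10 months (5 and 3). All knock-ins kept 1 normal Htt allele, repeat length differed only between lines, and each library held the whole striatum of mixed cell types. Striatum was removed once from a mouse, so the libraries of 6 and 10 months are of other mice than those whose values at 2 months define the 6 genes, although the genes were picked with results of all ages known.

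Except for Armcx6, the 6 genes encode proteins of the neuronal surface, its signalling and the cytoskeleton. Kcng1 encodes Kv6.1, a silent potassium channel subunit that makes no channel alone and changes the gating of Kv2 channels when it joins them. Htr2c encodes the serotonin 2C receptor, which acts through Gq and phospholipase C, whose RNA is edited by adenosine deaminases, and which is best known for its very high level in choroid plexus. Cntn6 encodes a contactin, an immunoglobulin-domain adhesion protein held to the membrane by a lipid anchor, and Pcdh20 a protocadherin outside the gene clusters. Klhl1 encodes a neuronal kelch-like protein that binds actin, and Armcx6 belongs to an X-linked family of armadillo-repeat proteins whose relatives sit on mitochondria. The striatum is made up mostly of medium spiny neurons, the projection neurons that expanded huntingtin affects first.

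In the GENCODE M21 annotation of GRCm38, Pcdh20 (ENSMUSG00000050505, chr14:88464743-88471396) and Klhl1 (ENSMUSG00000022076, chr14:96102736-96519102) lie on the same chromosome, both on the minus strand. Armcx6 (ENSMUSG00000050394, chrX:134748461-134751417, minus strand) and Htr2c (ENSMUSG00000041380, chrX:146962513-147197277, plus strand) share the X chromosome. Kcng1 (ENSMUSG00000074575) was at chr2:168260117-168281736 on the minus strand and Cntn6 (ENSMUSG00000030092) at chr6:104492790-104863406 on the plus strand. The build used by the authors is not given in the sources used here, so these positions are those of the annotation and not of the deposited files. Whether counting used strand is not given either, and reads of Klhl1 and of genes on the other strand within it cannot be told apart.

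Since the 6 genes were chosen for a shared direction at 2 months, the sequences upstream of their start sites were searched for common promoter letters, on both strands. The RefSeq promoter table of GRCm38.p6 held 5 of the 6 genes. A CCAAT box, searched as CCAAT and ATTGG, lay in the windows of 3 of the 5, which are shown for that reason 5′ to 3′ on the strand of the gene, with the matched letters in capitals. The pieces are chrX:134751420-134751669 (minus) for Armcx6, chrX:146962263-146962512 (plus) for Htr2c and chr14:88471397-88471646 (minus) for Pcdh20, 250 bases each.

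Armcx6: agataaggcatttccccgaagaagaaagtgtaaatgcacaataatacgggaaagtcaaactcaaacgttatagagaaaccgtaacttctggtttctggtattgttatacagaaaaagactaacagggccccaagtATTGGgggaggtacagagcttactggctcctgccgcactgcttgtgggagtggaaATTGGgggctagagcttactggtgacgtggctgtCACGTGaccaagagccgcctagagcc

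Htr2c: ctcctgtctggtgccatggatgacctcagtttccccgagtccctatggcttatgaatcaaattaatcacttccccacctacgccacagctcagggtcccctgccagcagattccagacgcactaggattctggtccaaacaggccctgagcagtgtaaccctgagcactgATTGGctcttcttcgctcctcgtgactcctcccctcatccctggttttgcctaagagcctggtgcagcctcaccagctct

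Pcdh20: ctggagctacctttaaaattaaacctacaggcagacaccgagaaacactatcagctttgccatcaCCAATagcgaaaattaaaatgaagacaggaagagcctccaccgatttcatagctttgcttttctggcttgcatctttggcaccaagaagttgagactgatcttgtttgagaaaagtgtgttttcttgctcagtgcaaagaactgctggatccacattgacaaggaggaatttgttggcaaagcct

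The windows searched reach past the start site, and the part before it is shown. The CCAAT letters were in 37.4% of the 32544 promoter windows of the same length in the table. The Armcx6 piece also carries the E-box CACGTG in capitals near its end, which 7.17% of all windows hold and none of the other 4 does. The GC box GGGCGG (35.9% of windows) and the TATA letters TATAAA (13.6%) were each found in Klhl1 alone. The cyclic AMP element TGACGTCA (1.8%) and the RE1 pieces GGACAGC (6.59%) and TTCAGCACC (0.37%), which belong to the site of the neuronal repressor REST, were in none of the 5 windows. Matches are letters only and were not tested as sites.

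Total counts ran from 29.1 to 49.6 M per library (M, 1000000 counts) with a median of 35.7 M, so that each of the 6 genes was counted well above the low-count filter at every age. At 2 months the libraries Q20 M2, Q20 M3, Q92 M3, Q92 M4 and Q80 M5 stood apart, with a median correlation to the rest under 0.97 and a mitochondrial share of 20.5 to 24.1% (11.4 to 17.4% elsewhere), and 1 library labelled male, Q80 M3, lacked Y-linked counts. Htt itself, whose repeat the counts do not show, was lower than in Q20 at 6 months in Q111 (-0.11), Q140 (-0.24) and Q175 (-0.41, adjusted p = 6.27e-25) and at 10 months in Q140 (-0.39) and Q175 (-0.52). It was not called in Q80 or Q92 at either age, in Q111 at 10 months, or in any line at 2 months (Q175 -0.27, adjusted p = 0.832). The tissue label held at 6 months, with the striatal genes Ppp1r1b at a median of 1820 CPM, Penk at 1235 and Drd1 at 232. At 10 months their medians were lower, at 1082, 724 and 203 CPM. The thalamic gene Slc17a6 had a median of 41.1 CPM at 10 months. Its lowest library of that age (8.21 CPM) lay above its medians at 2 and 6 months. Whether tissue content differed between the ages was not tested. Of 15 medium spiny neuron markers 15 were lower in Q175 than in Q20 at 6 and at 10 months (medians -0.77 and -0.59), and their summed level ran from 8859 to 10178 CPM in Q175 against 15040 to 17609 in Q20 at 6 months. Fewer cells of a type and less RNA per cell cannot be told apart in whole tissue, for these markers or for the 6 genes. None of the 10 choroid plexus, 8 thalamic or 12 cortical markers was lower in Q175 at either age, and 1 cortical marker was higher at 6 months.

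At 2 months, the age that chose them, all 6 genes were higher in Q175 than in Q20, by 0.20 to 0.50 on the log2 scale. Kcng1 had 25.6, 28.2 and 33.2 CPM (lowest, median and highest of 8 libraries) in Q20, and 35.2, 41.2 and 44.4 CPM in Q175. Armcx6 had 5.32, 5.81 and 6.34 CPM in Q20 and 6.51, 7.04 and 7.63 in Q175. The libraries of both lines did not overlap for these 2 genes, while those of the other 4 did. All Q175 libraries lay above all Q20 libraries for 0.0235% of genes tested, a share from which nothing is read, since this contrast chose the genes. Htr2c ran from 57.2 to 83.9 CPM (median 64.6) in Q20 and from 71.8 to 91.8 (median 86.6) in Q175. The libraries of that age richest in Ttr, a choroid plexus gene, were Q175 F3 and F4 (750 and 194 CPM, against a median of 32.9), with Htr2c at 89.6 and 71.8 CPM. Klhl1 ran from 9.35 to 12.2 CPM (median 10.8) in Q20 and from 11.8 to 15.8 (median 13.4) in Q175. All 8 Q175 libraries lay above the Q20 mean for each of the 6 genes. Cntn6 ran from 18.7 to 23.3 CPM in Q20 and from 21.3 to 25.1 in Q175, and Pcdh20 from 8.62 to 12.2 and from 11.9 to 13.9. No test is given for this age, since these values made the choice.

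The log2 differences of Q175 from Q20 at 2 months were 0.50 for Kcng1 (SE 0.0670), 0.35 for Htr2c, 0.34 for Klhl1, 0.33 for Pcdh20, 0.27 for Armcx6 and 0.20 for Cntn6. In Q140 they were smaller, from 0.34 for Kcng1 to 0.05 for Cntn6, and in Q111 they ran from 0.22 for Kcng1 to -0.03 for Pcdh20. In Q92 and Q80 they lay between -0.06 and 0.15. The trends per 10 repeats at that age, led by Kcng1 (0.0329) and Pcdh20 (0.0245), leaned on the longest lines for some genes, and without Q140 and Q175 they were -0.0047 for Pcdh20, 0.0027 for Htr2c and 0.0228 for Kcng1. For Q20 against wild types of that age the values lay between -0.11 and 0.06 except for Armcx6, which at 6.70 CPM in wild types was 0.21 above Q20 on the log2 scale (-0.21 for Q20 against wild type). Measured against wild types, Armcx6 in Q175 stood at 0.066. The median of the 6 differences was 0.34 against Q20, 0.288 without the 5 libraries that stood apart and 0.253 with wild types as the reference.

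Some of the 6 genes sat close to the threshold of the choice, an adjusted p of 0.05 in edgeR's quasi-likelihood test, while Kcng1 lay far inside it. Of 17006 genes tested 0.0294% were called higher in Q175 at 2 months, 4 of them among the 6 (Kcng1, Armcx6, Klhl1 and Cntn6). For rising trends the share was 0.0472%, with Kcng1, Armcx6, Klhl1, Pcdh20 and Htr2c among the 8 genes called. Just inside lay Cntn6, at a mean of 19.9 CPM in Q20 and 22.9 in Q175, and for the trend Htr2c, at 0.0236 per 10 repeats. Just outside for Q175 were Tnnt2 (2.03 and 2.88 CPM), Kdelc1 (10.7 and 12.3) and Aqp1 (0.348 and 1.14), and for the trend Aqp1 (0.0964), Morc4 (0.0195) and Abcb8 (0.0098). Also inside, but not among the 6, were Gm6410, Taf4b, B3gat1 and Npy1r. At 6 months these 4 stood at 1.06, 0.37, 0.16 and 0.50 in Q175 against Q20, and at 10 months at 0.09, 0.34, 0.14 and 0.21. That of Gm6410 at 10 months did not pass (adjusted p = 0.852).

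**Figure D1:**
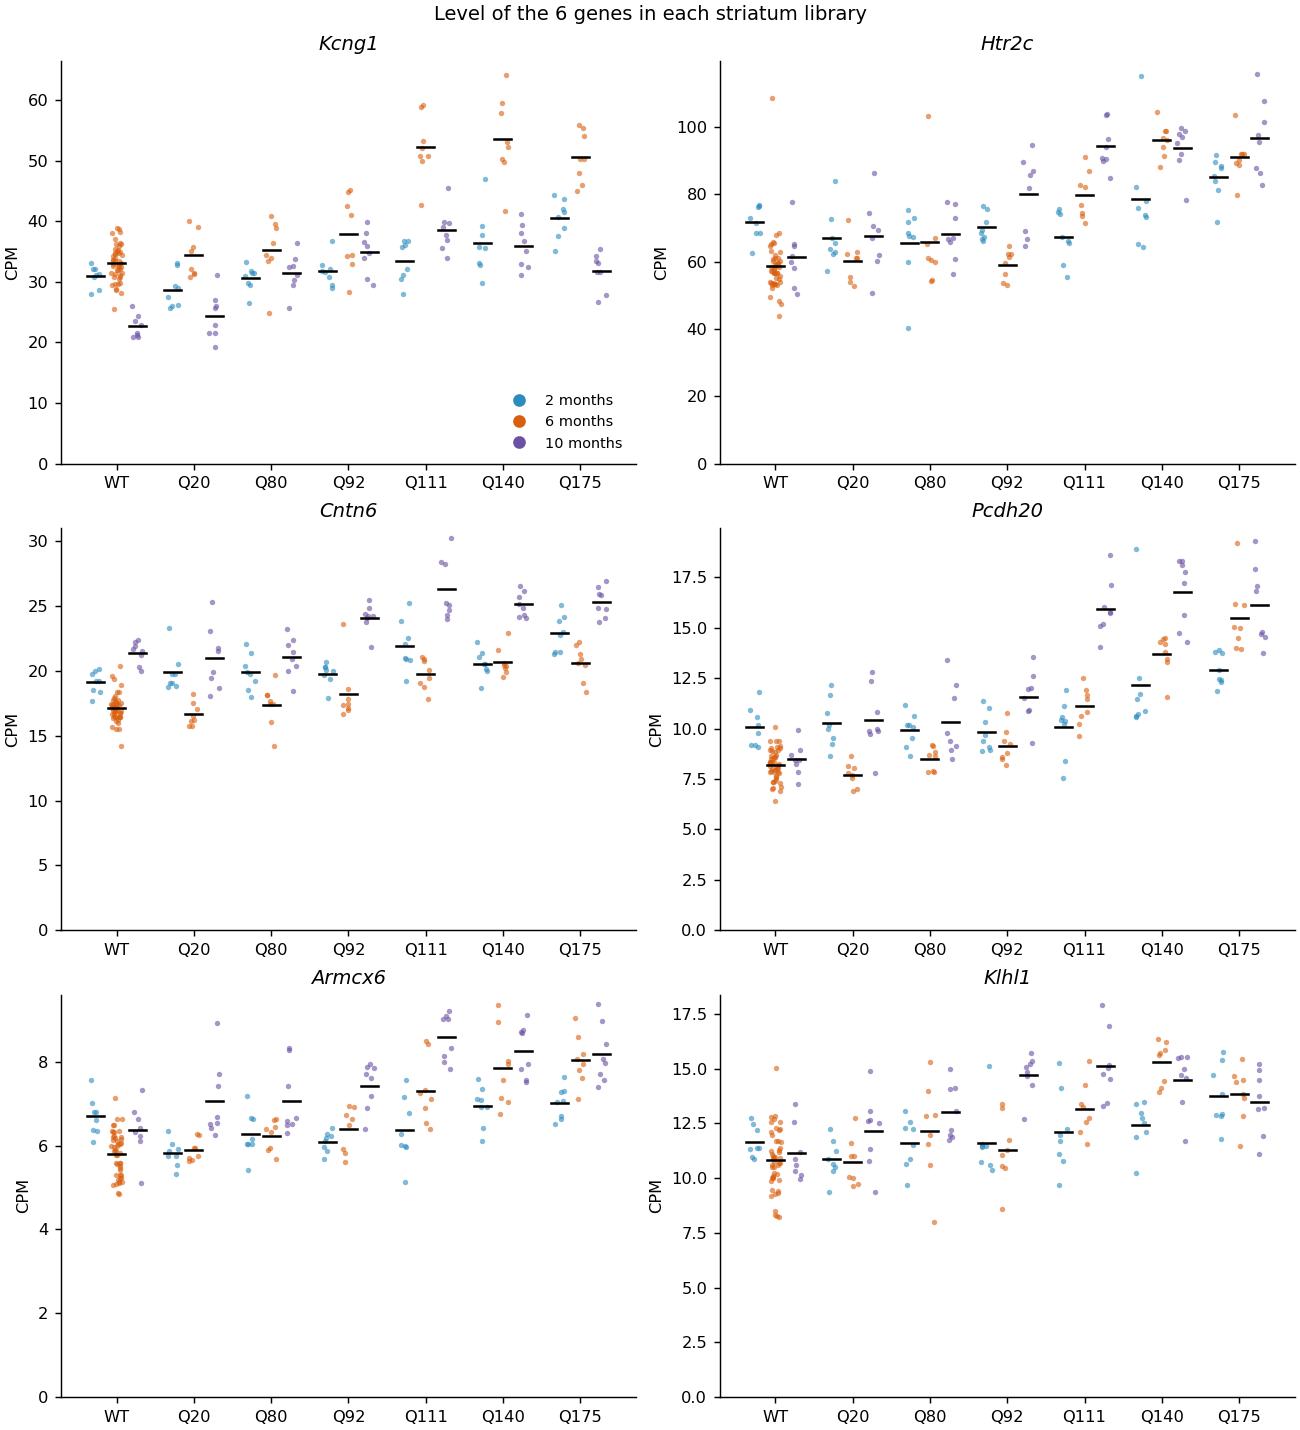
Level of each of the 6 genes in every striatum library, in CPM (counts per 1000000 of the library, linear axis from 0) by line and age (blue 2, orange 6, purple 10 months), with a bar at the mean of each group; wild types of 6 months are the libraries of all 6 cages. Pcdh20 at 6 months climbs from 7.72 CPM in Q20 to 15.5 in Q175, while Kcng1 stays near 50.7 to 53.6 CPM from Q111 to Q175.

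The question for the later ages was how each gene developed with age and repeat length in mice other than those of 2 months. All 6 were called higher in Q175 than in Q20 at 6 months, where 18.0% of 17642 genes were called higher and 18.2% lower. Their median log2 fold change was 0.50, beside 0.0097 over all genes tested. All Q175 libraries lay above all Q20 libraries for 5 of the 6 at 6 months, without Klhl1, as for 4.46% of genes tested. At 10 months 5 of the 6 were called higher, where 12.4% of 17170 genes were higher and 12.1% lower, with a median of 0.32 beside 0.0107. The exception at 10 months was Klhl1. Comparisons of different lines with Q20 share the 8 Q20 libraries of their age. The labels number the libraries of a group as replicates and do not say that each is a separate animal, so a p-value measures the spread between these libraries, which may be technical in part.

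Kcng1, the silent channel subunit, was high in all 3 of the longest-repeat lines at 6 months. It had 30.8, 33.6 and 40.1 CPM in Q20, 42.7, 51.5 and 59.2 in Q111, 41.8, 52.7 and 64.2 in Q140, and 45.1, 50.3 and 55.9 in Q175. The libraries of each of these lines lay above every Q20 library, and the lines overlapped with one another. In order of the mean, Q175 (50.7 CPM), Q111 (52.2) and Q140 (53.6) differed by less than their SD, and the step beyond the SD was the one from Q92 (38.0) to Q175. The log2 fold change in Q175 was 0.56 (SE 0.0753, adjusted p = 2.10e-09), in Q140 0.64 and in Q111 0.60. At 10 months the mean was lower than at 6 months in every group, with 19.2, 24.3 and 31.1 CPM in Q20 and 26.6, 32.4 and 35.5 in Q175. The striatal gene Ppp1r1b was lower at 10 months too (median 1082 CPM against 1820), and the part of tissue content was not tested. At 10 months the highest Kcng1 mean was that of Q111 (38.6 ± 3.51 CPM, SD, n = 8), all of whose libraries were above those of Q20. Q175 (31.8 ± 3.09) overlapped Q20 and lay beside Q80 (31.5). The log2 fold changes at 10 months were 0.66 in Q111 (adjusted p = 1.95e-09), 0.55 in Q140 and 0.38 in Q175 (SE 0.076, adjusted p = 0.000126).

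The shorter lines differed from Q20 in Kcng1 at 10 months. Its change was 0.51 in Q92 (adjusted p = 2.61e-05) and 0.37 in Q80 (adjusted p = 0.0347), in comparisons where 0.338% and 0.0932% of genes were called higher. At 6 months the values were 0.14 and 0.04, and neither was called. The Q80 call at 10 months was lost without a filter on low counts (adjusted p = 0.0529) and with only the compared groups in the fit (adjusted p = 0.147), within a range over the alternatives from 0.000879 to 1.0. Whether the change of Kcng1 differs between 6 and 10 months was tested directly, and neither Q92 (0.38, adjusted p = 0.0588) nor Q80 (0.34, adjusted p = 0.0836) passed. The trend of Kcng1 at 10 months, 0.0270 per 10 repeats (adjusted p = 0.00211), rested on the Q20 line, and without it stood at -0.004 (adjusted p = 0.761, the highest over the alternatives, which reached down to 7.66e-07).

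Htr2c, the serotonin 2C receptor, was the most abundant of the 6 per length, at 12.6 FPKM in Q20 and 20.0 in Q175 at 6 months. In CPM it had 52.7, 61.1 and 72.4 in Q20, 71.4, 79.5 and 91.1 in Q111, 88.0, 96.5 and 104 in Q140, and 79.8, 91.1 and 104 in Q175. The Q140 and Q175 libraries lay wholly above Q20, and the Q111 libraries just touched it. Its log2 fold change was 0.60 in Q175 (SE 0.0865, adjusted p = 1.81e-08), 0.68 in Q140 and 0.41 in Q111. In the order of means Q111 (79.9 CPM) stood below Q175 (91.0) by more than the SD, and Q175 and Q140 (96.1) differed by less. Q92 lay at Q20 (-0.03). At 10 months it had 50.7, 68.2 and 86.3 CPM in Q20 and 82.7, 96.5 and 116 in Q175, with an overlap of the groups. The change was 0.52 in Q175 (SE 0.0857, adjusted p = 5.03e-06), 0.47 in Q140 and 0.48 in Q111, whose means of 96.9, 93.7 and 94.3 CPM differed by less than their SD.

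Choroid plexus genes were high in single libraries. At 6 months Q80 F3 and the wild type M2 of the Q80 cages had 5301 and 5383 CPM of Ttr, the choroid plexus carrier of thyroid hormone, against a median of 34.7, and Htr2c at 103 and 109 CPM. Without both the change of Htr2c in Q80 against Q20 was 0.0078, and with them 0.13, not called in either case. The 10 summed choroid plexus markers ran from 42.7 to 74.8 CPM in Q175 and from 32.9 to 80.2 in Q20 at 6 months, and from 38.0 to 833.2 and from 31.7 to 112 at 2 months. Without Q175 F3 and F4 the 2-month difference of Htr2c between Q175 and Q20 was 0.36, and with both it was 0.35. At 10 months the libraries highest in Ttr were Q140 F1 and M2 (258 and 139 CPM, median 22.1). With tissue scores (1 each for the choroid plexus, thalamic and cortical lists) as covariates the Htr2c change in Q175 was 0.63 at 6 months and 0.56 at 10, called at both.

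Cntn6, the contactin, had the smallest change of the 6 in Q175 at 6 months, with little spread. At 6 months it had 15.7, 16.4 and 18.2 CPM in Q20, 19.5, 20.4 and 22.9 in Q140 and 18.4, 20.8 and 22.2 in Q175. Every Q140 and Q175 library was above every Q20 library, while Q111 (17.8, 19.8 and 21.1) overlapped Q20. Its log2 fold change was 0.31 in Q175 (SE 0.0498, adjusted p = 2.82e-07), 0.31 in Q140 and 0.25 in Q111. In the order of means no neighbouring groups differed by more than their SD at 6 months, from 16.4 CPM in wild types of the Q80 cages to 20.7 in Q140. At 10 months the level was higher in all groups, 18.1, 20.7 and 25.3 CPM in Q20 and 23.8, 25.4 and 27.0 in Q175. The one step beyond the SD then separated wild types (21.4), Q20 (21) and Q80 (21.1) from Q92 (24.1) and the longer lines (25.1 to 26.3). The change was 0.27 in Q175 (SE 0.0494, adjusted p = 2.91e-05), 0.32 in Q111 and 0.20 in Q92 (adjusted p = 0.0267), the last of which was lost with the L code of the library names as a covariate (adjusted p = 0.0876), with all wild types as the reference (0.0569) and with only the compared groups in the fit (0.144), in a range from 0.0138 to 1.0.

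Pcdh20, the protocadherin, showed the most regular dose series and the largest change of the 6. At 6 months it had 6.91, 7.74 and 8.66 CPM in Q20, 8.17, 9.01 and 10.8 in Q92, 9.62, 11.1 and 12.5 in Q111, 11.6, 14 and 14.5 in Q140, and 13.9, 15 and 19.2 in Q175. Q111, Q140 and Q175 did not overlap Q20. Each of the steps from Q92 to Q111, to Q140 and to Q175 (means 9.15, 11.1, 13.7 and 15.5 CPM) was larger than the SD, and for none of the other 5 genes was there more than 1 such step at this age. The log2 fold change was 1.0 in Q175 (SE 0.0592, adjusted p = 2.07e-26), 0.83 in Q140, 0.52 in Q111 and 0.25 in Q92 (adjusted p = 0.00818). By its p-value the Q175 change ranked 16 among 17642 genes, and its trend with repeat length 4 among 17370. Per length it was the lowest of the 6, at 1.45 FPKM in Q20 and 3.07 in Q175.

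At 10 months Pcdh20 was the one gene whose Q175 libraries (13.8, 15.8 and 19.3 CPM) all lay above Q20 (7.81, 9.93 and 12.8), as was so for 1.97% of all genes tested. Q111 (14, 15.8 and 18.6) and Q140 (14.3, 17.5 and 18.3) did so as well. The means of Q111, Q140 and Q175, 15.9, 16.8 and 16.1 CPM, no longer differed beyond their SD. The changes were 0.60, 0.68 and 0.62 (SE 0.0831 for Q175, adjusted p = 5.75e-08). The Q20 level itself was higher than in its wild-type cage mates at that age (10.4 ± 1.59 against 8.47 ± 0.786 CPM, SD, n = 8 each), a log2 difference of 0.31 that was not called (adjusted p = 0.664).

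Klhl1, the kelch-like actin binder, rose at 6 months with more overlap than the others. It had 9.63, 10.5 and 12.7 CPM in Q20, 11.6, 13 and 15.4 in Q111, 13.9, 15.7 and 16.3 in Q140, and 11.5, 14.1 and 15.4 in Q175. All Q140 libraries were above Q20, and some of those of Q111 and Q175 were not. The highest mean was that of Q140 (15.3 CPM), above Q175 (13.8) by more than the SD. The log2 fold change was 0.37 in Q175 (SE 0.0796, adjusted p = 9.3e-05), 0.51 in Q140 and 0.29 in Q111 (adjusted p = 0.00602). At 10 months Q20 had 9.35, 12.6 and 14.9 CPM and Q175 11.1, 13.5 and 15.2, an overlap over most of the range. The change in Q175 was 0.15 (95% interval 0.0030 to 0.29, adjusted p = 0.141), and it passed under 5 alternatives (adjusted p from 0.0038 to 1.0 over all of them, at values from 0.10 to 0.28). It was called in Q140 (0.25, adjusted p = 0.00916) and Q111 (0.32, adjusted p = 0.0017), and in Q92 (0.28, adjusted p = 0.0435), the last of which was lost without a low-count filter (0.0518), with the L code (0.142) and with only the compared groups (0.109), in a range from 0.000492 to 1.0. No neighbours in the order of means differed beyond their SD at 10 months.

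Armcx6, the X-linked armadillo-repeat gene, stood at 3.08 FPKM in Q20 and 4.42 in Q175 at 6 months. In CPM it had 5.62, 5.85 and 6.27 in Q20, 6.39, 7.18 and 8.49 in Q111, 6.76, 7.75 and 9.36 in Q140, and 7.12, 8.01 and 9.04 in Q175. All libraries of these 3 lines were above every Q20 library, and the lines overlapped with one another. The log2 fold change was 0.45 in Q175 (SE 0.0621, adjusted p = 3.87e-09), 0.41 in Q140 and 0.31 in Q111. At 10 months it had 6.26, 6.61 and 8.92 CPM in Q20 and 7.39, 8.02 and 9.38 in Q175, and the groups overlapped. The change in Q175 was 0.20 (SE 0.0668, adjusted p = 0.0216). That call was lost without Q175 M4 (adjusted p = 0.0562), Q20 F5 (0.0521), Q20 M1 (0.0712) or Q20 M3 (0.0563), with the L code as a covariate (0.0653) and with only the compared groups (0.0733), in a range from 3.07e-05 to 1.0 over the alternatives, at values from 0.17 to 0.36. Q140 (0.22, adjusted p = 0.0139) and Q111 (0.27, adjusted p = 0.00293) were also called.

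Over the lines, counts of the 6 genes called higher than Q20 at 6 months were 0 in Q80 (0 by DESeq2 too), 1 in Q92, and 6 each in Q111, Q140 and Q175, where 0.204%, 3.0%, 5.37%, 13.8% and 18.0% of all genes were called higher. The Q92 gene was Pcdh20, whose call was lost with the tissue scores as covariates (adjusted p = 0.0845) and with only the compared groups (0.0749), in a range from 0.00324 to 1.0. At 10 months the counts were 1 in Q80, 3 in Q92, 6 in Q111, 6 in Q140 and 5 in Q175, beside shares of 0.0932%, 0.338%, 5.58%, 10.9% and 12.4%. In Q111 all 6 were thus called at both ages. The largest change among the 6 in Q111 was that of Kcng1 at both ages, and in Q140 and Q175 that of Pcdh20.

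The trend over the 6 knock-in lines, in log2 change per 10 repeats, was called for all 6 genes at 6 months, where 20.3% of genes rose. It was 0.0717 for Pcdh20 (adjusted p = 5.24e-17), 0.0487 for Htr2c, 0.0472 for Kcng1, 0.0332 for Armcx6, 0.0306 for Klhl1 and 0.0233 for Cntn6. At 10 months 5 were called, where 15.9% of genes rose, from 0.0511 for Pcdh20 (adjusted p = 5.64e-08) to 0.0167 for Armcx6 (adjusted p = 0.00225). Klhl1 stood at 0.0119 (adjusted p = 0.0681). It was called without Q175 (0.0261, adjusted p = 0.00167) or both Q140 and Q175 (0.0352), with the replicate block, with tissue scores and on both FPKM scales, and without Q20 it turned to -0.0021 (adjusted p = 0.868). Without both Q140 and Q175 the 6-month trends of Klhl1 (adjusted p = 0.0949) and Htr2c (0.0716) and the 10-month trend of Armcx6 (0.088) were lost, the highest values over their alternatives. Since only 6 repeat lengths exist and each is 1 line, the trend's p counts the spread of libraries within lines and leaves out that of the lines themselves, and repeat length cannot be told apart from other differences between lines.

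**Figure D2:**
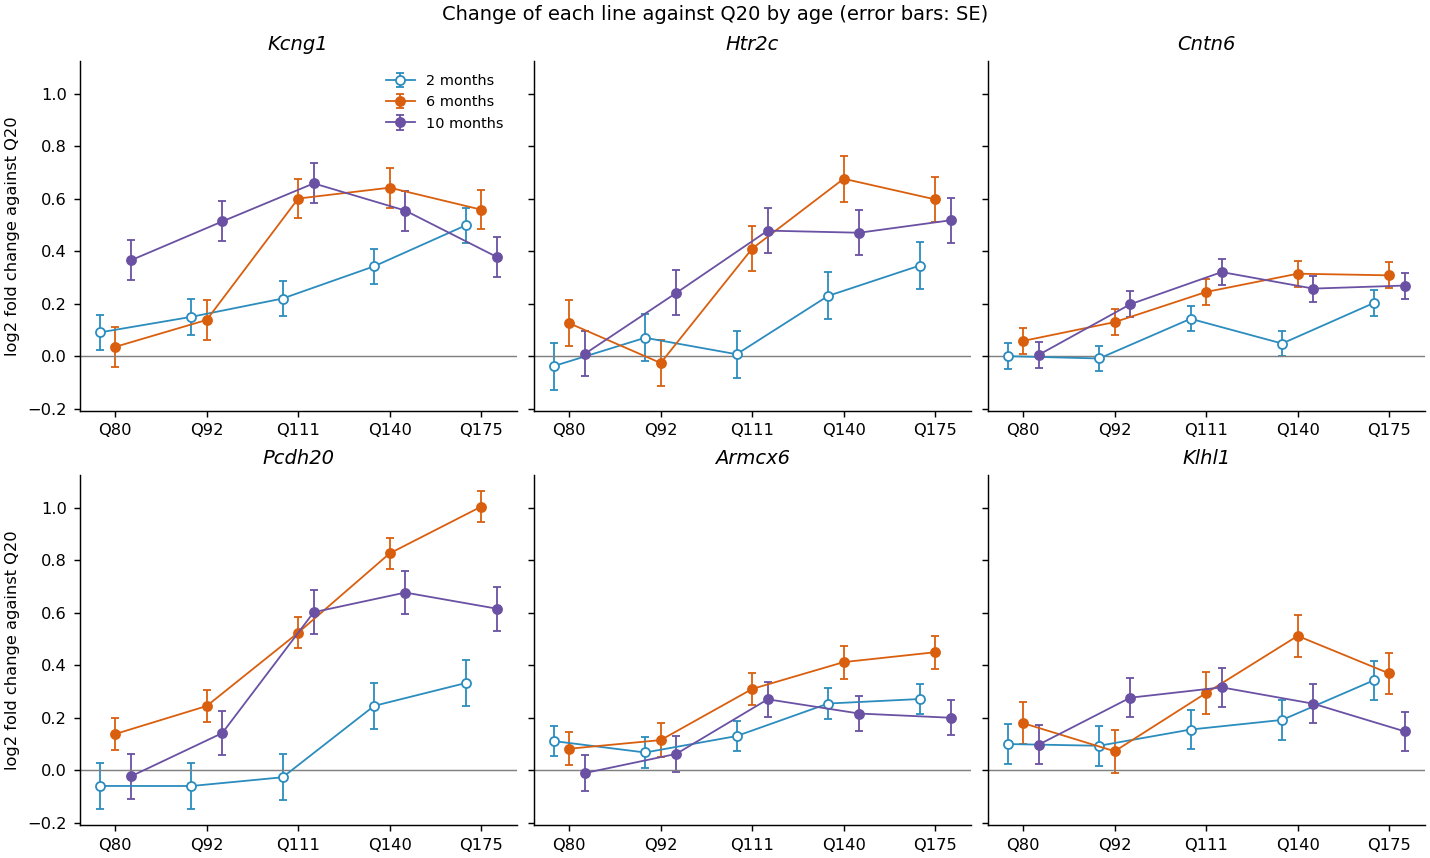
Log2 fold change of each line against Q20 (vertical axis, bars are SE, 8 libraries a group) by line and age; the open symbols of 2 months are the values that chose the genes. Pcdh20 and Armcx6 climb with each longer line at 6 months up to 1.0 and 0.45 in Q175, while Kcng1 at 10 months peaks at 0.66 in Q111 and falls to 0.38 in Q175.

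A second reference, the wild types housed with each line, was available at 6 months. All 6 genes were called higher against these cage mates in Q111, Q140 and Q175, where 4.28%, 12.4% and 15.7% of all genes were. In Q175 the changes were 0.81 for Pcdh20, 0.59 for Htr2c, 0.54 for Kcng1, 0.48 for Armcx6, 0.24 for Cntn6 and 0.21 for Klhl1 (adjusted p = 0.0353). All libraries of the line lay above those of the cage mates for 4 of the 6 genes in Q175, 5 in Q111 and 6 in Q140, as they did for 3.97%, 0.612% and 2.85% of all genes tested. In Q92 and Q80 edgeR called 0 of the 6, as did DESeq2 (values from 0.04 to 0.22 and from 0.01 to 0.18), in comparisons where it called 0.0170% and 0.0227% of genes and 4.81 and 3.86% had an unadjusted p under 0.05. The smallest change called was that of Cntn6 in Q111 (0.17, adjusted p = 0.0162), which was lost with only the compared groups in the fit (0.0536), in a range from 0.000133 to 1.0.

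Between the reference groups no difference was called in these genes. Q20 against its own wild types lay between -0.10 and 0.12 at 6 months and between -0.03 and 0.31 at 10 months. None of the 6 was called by edgeR or by DESeq2, where 0.0227% and 0.0116% of genes were and 5.09 and 4.51% had an unadjusted p under 0.05. Among the 6 wild-type groups of 6 months 1.34% of genes differed, and none of the 6 was called. Klhl1 came nearest, at means from 9.81 CPM in the Q111 cages to 12 in the Q175 cages (adjusted p = 0.0549), and with RLE scaling it passed (adjusted p = 0.0493), while without a low-count filter the value was 0.0747.

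**Figure D3:**
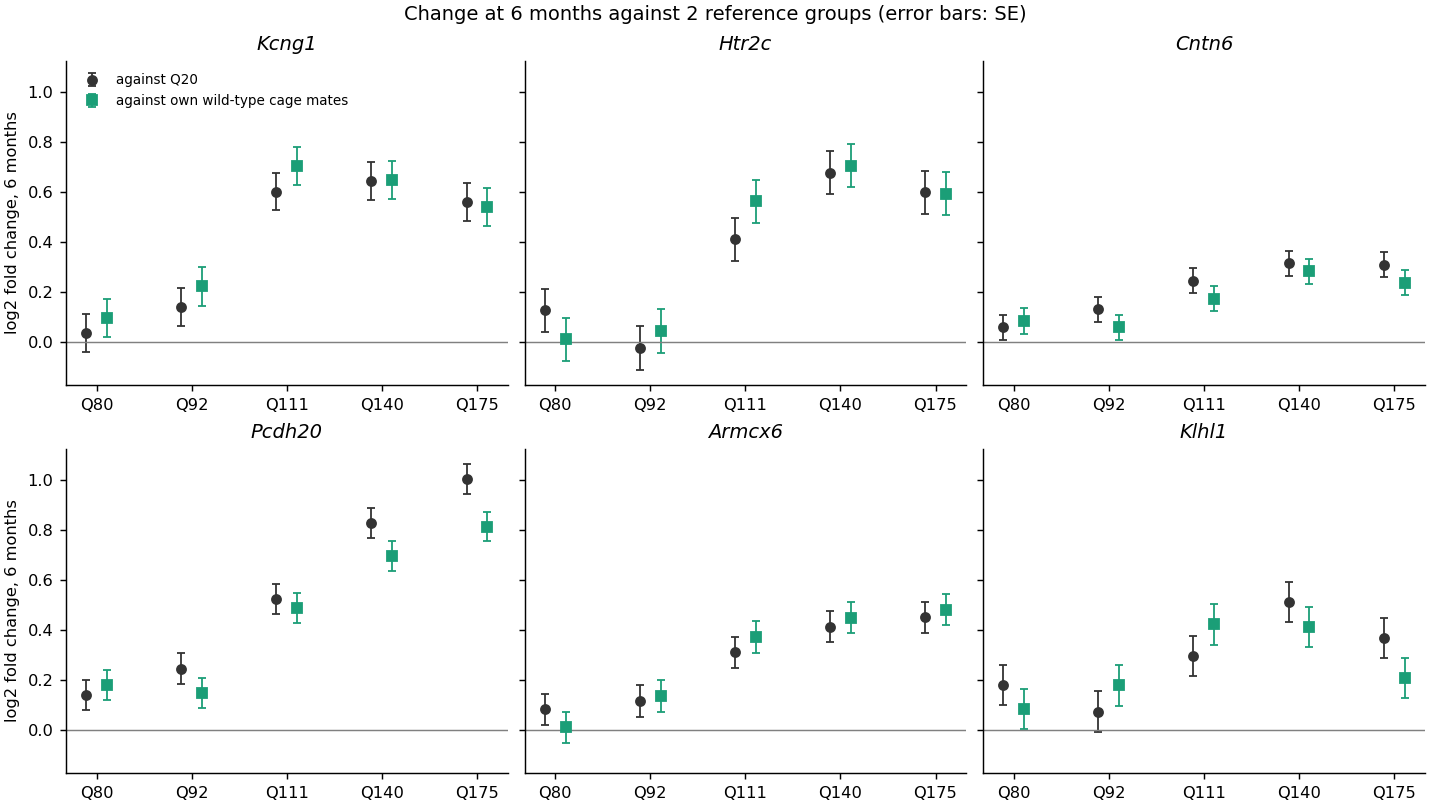
Log2 fold change at 6 months of each line against Q20 (black circles) and against its own wild-type cage mates (green squares), with SE bars, 8 libraries a group. The values of both references lie close for Kcng1 and Htr2c in Q175 (0.56 and 0.54, 0.60 and 0.59), while Pcdh20 (1.0 and 0.81) and Klhl1 (0.37 and 0.21) are lower against the wild types.

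The difference of the Q175 change between 6 and 10 months was tested itself, and 0.0448% of 17856 genes passed. For the 6 genes all values were negative, that is lower at 10 months, but edgeR called none of them, with 0 of 6 past the threshold. Pcdh20 had the largest, -0.39 (SE 0.0981, adjusted p = 0.0954), followed by Armcx6 (-0.25, adjusted p = 0.297), Klhl1 (-0.22), Kcng1 (-0.18), Htr2c (-0.08) and Cntn6 (-0.04). For Pcdh20 the mean of Q175 was not lower at 10 months (15.5 and 16.1 CPM), and that of Q20 was higher (7.72 and 10.4). Against wild types of the Q20 cages its log2 ratio of means in Q175 was 0.91 and 0.93. Against them the other genes were lower at 10 months, such as Kcng1 (0.66 and 0.49). These ratios were not tested. No difference between females and males was called by edgeR in any of the 6 at either age, where 18.5% of genes differed at 6 months and 1.28% at 10 months. A difference of the Q175 change between sexes was not called in any of them either. The share of genes called in that test was 0% at both ages, with 5.63 and 4.23% of genes at an unadjusted p under 0.05. At 6 months that difference, females minus males, ran from -0.22 for Htr2c to 0.27 for Kcng1 and Klhl1. For Klhl1 the Q175 change was 0.51 in females and 0.23 in males.

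To see the rest of each gene's family, lists of relatives and partners were counted, with the 6 genes left out. The lists were drawn up with earlier results of these data known, and their medians stand beside those of all genes, 0.0097 at 6 months and 0.0107 at 10 months. Their counts stand beside the shares of all genes called in Q175, 18.0% higher and 18.2% lower at 6 months and 12.4% and 12.1% at 10 months, and shares near these are no result about a family. Of 8 other silent Kv subunits, the class to which Kcng1 belongs, none was called higher in Q175 at 6 months and 2 were lower, Kcng3 (-0.40, adjusted p = 0.00173) and Kcns2 (-0.22, adjusted p = 0.0091), with a list median of -0.07. The count was 1, without Kcns2, with tissue scores as covariates and on both FPKM scales. At 10 months edgeR and DESeq2 called 0 of the 8 in either direction (median -0.04), with 2 at an unadjusted p under 0.05, Kcng3 (-0.57, adjusted p = 0.0651) and Kcng2 (-0.36, adjusted p = 0.111), and 1 was called lower without Q20 M1, with tissue scores, with only the compared groups and on log2(FPKM + 1). Kcng4 stood at 0.63 at 6 months with an SE of 0.438 and did not pass.

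Among the other serotonin receptors no gene was called higher in Q175 than in Q20 at 6 or 10 months. Of 11 tested 3 were lower at 6 months (median -0.12), namely Htr1b (-0.74), Htr4 (-0.53) and Htr1d (-0.30). At 10 months 2 were lower, Htr4 (-0.85) and Htr1b (-0.66), and the median was -0.17. With the replicate number as a block 1 receptor was higher at 6 months. Among 19 genes of Gq signalling and RNA editing, which act downstream of the receptor or on its RNA, 2 were higher and 10 lower at 6 months (median -0.13). Rgs4, which shortens Gq signals, fell by 0.86, Itpr1, the inositol trisphosphate receptor, by 0.59, Prkcb, a protein kinase C, by 0.58, and Plcb1, a phospholipase C, by 0.51. The editing enzyme Adar was at -0.04 at 6 months and did not pass, and at 10 months, where 9 of the 19 were lower and none higher, it stood at -0.12 (adjusted p = 0.0471).

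Relatives of the adhesion genes moved both ways. Of 22 contactins and their partners 5 were higher and 6 lower at 6 months (median 0.01), with Cntnap3 at -1.07, Cntn5 at -0.68 and Cntnap1, the paranodal partner of contactin, at -0.34, and the L1 family protein Chl1 at 0.37. The kinase Fyn, which signals below contactins, was at 0.08. At 10 months 2 were higher and 6 lower (median -0.08), with Cntnap3 at -1.09 and Cntn5 at -0.75. Of 19 protocadherins and related large cadherins outside the clusters 8 were higher and 3 lower at 6 months (median 0.13). Pcdh19 rose by 0.72, Fat1 by 0.48, Pcdh11x by 0.37 and Pcdh10 by 0.32, all below the 1.0 of Pcdh20, while Celsr1 fell by 0.19. At 10 months 4 of 18 were higher, with Pcdh19 at 0.37, and 2 lower (median -0.04).

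Among 38 kelch-like genes 10 were higher and 7 lower at 6 months (median 0.04), and 6 and 5 at 10 months (0.03). Klhl14 rose by 1.03 and 0.86 at the 2 ages, more than Klhl1, while Ivns1abp, a kelch protein that binds an influenza protein, fell by 0.45 and 0.33. At 6 months Klhl2 (-0.27) and Klhl40 (-0.60) were lower and Klhl12 (0.15) was higher. On the FPKM scale 18 or 17 kelch-like genes were higher at 6 months, depending on the pseudocount. In the family of Armcx6 most called genes were higher. Of 19 genes in its list (Armcx, Gprasp, Bex and Tceal genes with Bhlhb9 and Armc10) 11 were higher and 1, Tceal6 (-0.12), was lower at 6 months, and 10 were higher and none lower at 10 months (medians 0.19 and 0.13). Gprasp2 was at 0.46 and 0.23, Tceal9 at 0.29 and 0.34, Armcx4 at 0.34 and 0.07, of which the second did not pass, Armcx5 at 0.24 and 0.32, Armcx2 at 0.17 and 0.14, and Armcx3 at 0.06, which did not pass, and 0.13. Armcx6, at 0.45, lay near the top of that list at 6 months.

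**Figure D4:**
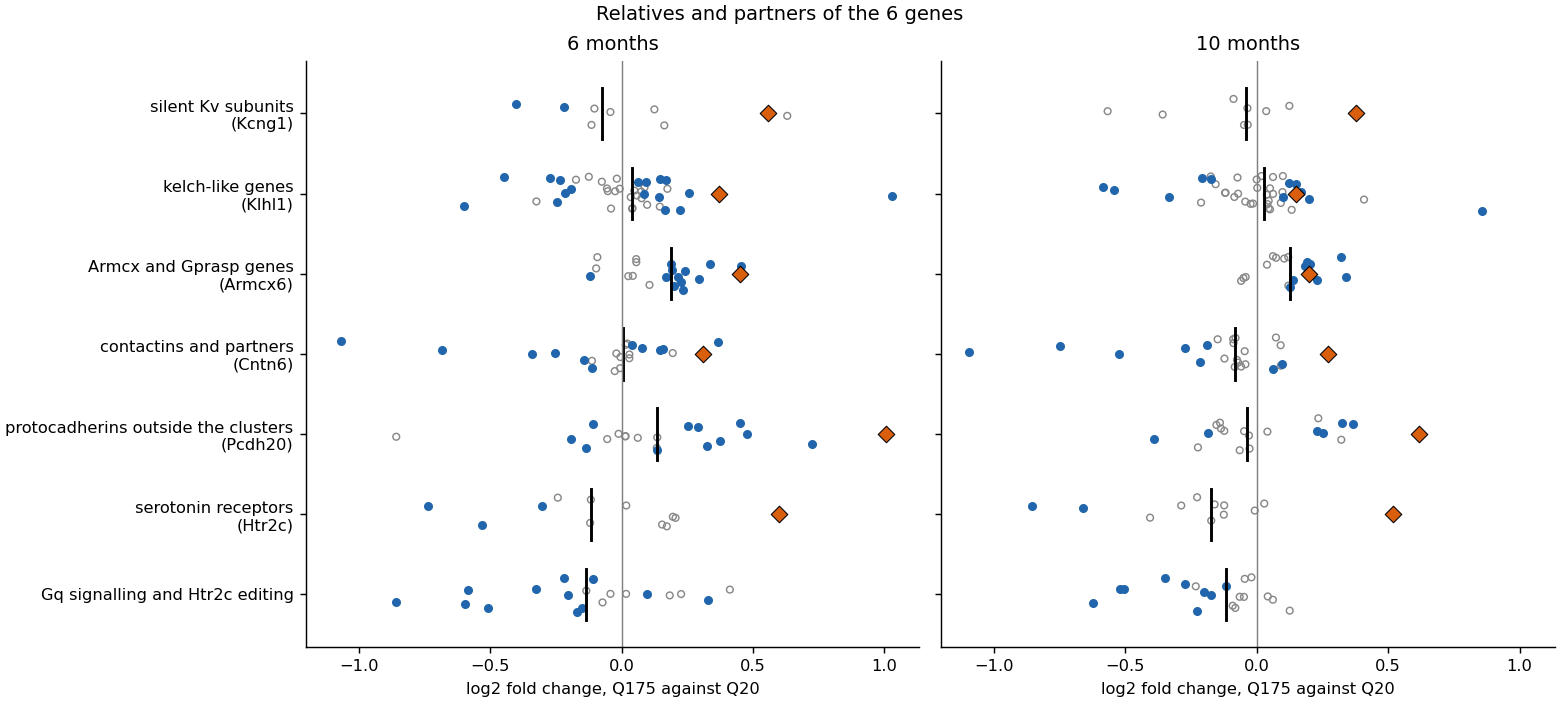
Log2 fold change of Q175 against Q20 (horizontal axis) for the genes of each relatives' list at 6 and 10 months; filled circles are called genes, open circles are not, the bar is the list median without the gene itself, and the orange diamond is the gene of the 6 that the list belongs to. Kcng1 (0.56) and Htr2c (0.60) stand at 6 months beside lists with medians of -0.07 and -0.12, and Armcx6 (0.45) beside one of 0.19.

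Genes with the most similar pattern over the 26 groups, by Pearson correlation of group means of log2 CPM centred within age, are given as a description. All share the libraries and their depth. Pcdh20 was most like Pcdh19 (r = 0.98), another protocadherin, then Gpd1l, Lrrn3, Brinp3 and Zfp7 (down to 0.97). Htr2c was most like Sh3bgrl (0.98), Ids, Trpc7, Pcdh11x and Gpd1l (0.96), of which Sh3bgrl and Trpc7 were also among the nearest of Armcx6. Armcx6 itself was most like Htr2c (0.96), then Trpc7, Wiz, Ptpro and Sh3bgrl (0.94). Kcng1 was most like Mro (0.95), Scn3b, Npy1r, Ddx5 and Eya1 (0.93), and Klhl1 most like Kcng1 (0.92), then Dlg3, Meis1, Ptpro and Agk (0.90). Among the genes most like Cntn6 were Prickle2 (0.95), Zfp322a, Vps36 and Arl5a (0.94). Between the 6 genes the correlation of group means ran from 0.80 (Klhl1 and Cntn6) to 0.96 (Armcx6 and Htr2c). The 26 groups include those of the youngest age, whose values chose the genes for a shared direction. Correlations between any of the 6 genes were therefore set in part by that choice, and nothing is read from their height.

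Within groups 1 of the pairs of these genes passed by Pearson's r. Over the 96 libraries of 6 months, after group and sex were taken off, 15 pairs were correlated, each with 100000 permutations within groups. The permutations took no account of the replicate number, although same-number libraries of Q20 and Q175 deviated together at this age. Kcng1 and Klhl1 were related (r = 0.46, adjusted p = 0.0009; rho = 0.36, adjusted p = 0.00915), and without the 2 libraries farthest out r was 0.32 (adjusted p = 0.0219). Armcx6 and Htr2c had r = 0.27 (adjusted p = 0.0553) and rho = 0.30 (adjusted p = 0.0246), and Pcdh20 and Htr2c r = 0.21 (adjusted p = 0.244) and rho = 0.30 (adjusted p = 0.0246). 

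Kcng1 and Klhl1 also followed the medium spiny neuron markers from library to library within a group, in a set of 84 relations per age (6 genes by 14 marker lists) that was chosen after seeing the data. By r 30 of the 84 passed at 6 months and 46 at 10 months. For Kcng1 r was 0.79 and rho 0.69 at 6 months (permutation p = 1e-05 for both, the smallest possible; adjusted p = 0.00012 and 0.000168), and 0.72 without the 2 farthest libraries. At 10 months r was 0.72 and rho 0.67. For Klhl1 r was 0.64 and rho 0.59 at 6 months, 0.53 without the 2 farthest, and 0.59 and 0.56 at 10 months. Between groups the direction was the other, since the score fell and both genes rose in the long-repeat lines. Kcng1 ran against the thalamic markers (r = -0.64 at 6 months and -0.69 at 10), as did Klhl1 (-0.51 and -0.46). Cntn6 went with them (r = 0.43, adjusted p = 0.0057, and r = 0.35, adjusted p = 0.0266), while its rho of 0.20 and 0.31 did not pass (adjusted p = 0.154 and 0.0613). At 10 months Armcx6 (-0.58), Pcdh20 (-0.38) and Htr2c (-0.60) also ran against them. The 8 summed thalamic markers ran from 84.7 to 140 CPM in Q20 and from 86.8 to 440 in Q175 at 6 months. With the same tissue scores as covariates all 6 genes were called in Q175 at both ages, from 0.27 (Cntn6) to 0.99 (Pcdh20) at 6 months and from 0.20 (Klhl1) to 0.60 (Pcdh20) at 10 months, with Kcng1 at 0.66 and 0.40. Armcx6 (r = -0.10, adjusted p = 0.553) and Pcdh20 (r = -0.18, adjusted p = 0.191) did not pass with the medium spiny neuron markers at 6 months. Cntn6 passed by r there (-0.34, adjusted p = 0.0294) but not by rho (-0.13), and r was -0.16 without the 2 farthest. Htr2c passed by r at 10 months (0.34, adjusted p = 0.0417) but not by rho (0.29, adjusted p = 0.0819). Htr2c had r = 0.64 with the choroid plexus markers at 6 months, but rho = 0.19, and without the 2 farthest libraries r was 0.15, so that this relation rested on those libraries at that age. At 10 months it passed with r = 0.32 (adjusted p = 0.0303) and rho = 0.35 (adjusted p = 0.0283), and r was 0.30 without the 2 farthest.

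**Figure D5:**
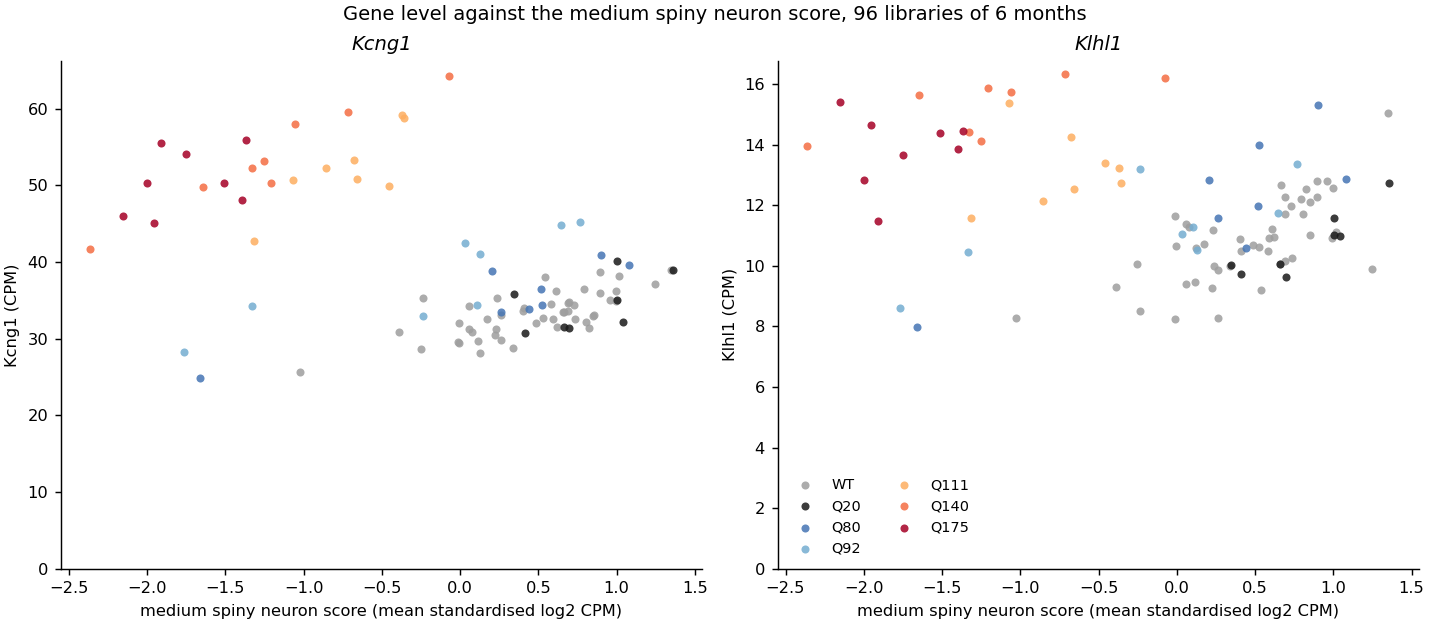
CPM of Kcng1 and Klhl1 (vertical axes from 0) against the medium spiny neuron score of the library (mean standardised log2 CPM of the 15 markers) in the 96 libraries of 6 months, coloured by group. For Kcng1 the wild types and the lines from Q20 to Q140 climb to the right (r = 0.79 over all libraries after group and sex were taken off), while Q111, Q140 and Q175 lie to the upper left of Q20 and wild types.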

How the data were processed

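RNA was extracted with miRNeasy and its poly(A) fraction sequenced on HiSeq instruments, per the labels' protocols. CASAVA 1.8.2 is named in the submitters' processing notes. Aligner, build and use of strand: not given in the sources used here. As values the authors deposited expected counts per gene, which need not be whole (32.7% of positive values are not) and were rounded, and FPKM, which allow for depth and length. Symbols were found for 37607 of 39179 identifiers (96.0%), with 99.7% of the counts. Intervals cover the spread of libraries and not PCR copies.

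Each age was fitted with edgeR 4.0.16 in R 4.3.3: filterByExpr (minimum count 10, minimum total 15), TMM scaling, a robust quasi-likelihood model with terms for the groups and for sex. Calls were made at 0.05 after Benjamini-Hochberg adjustment over all genes tested. The 6 genes and the lists were chosen with earlier results of these data known. Genes named beside the 6 are, per list, the called genes with the 4 smallest p at 6 months and the extremes at 10 months, the 5 genes most like each of the 6 (mean of at least 1 CPM), and the genes around the threshold at 2 months. Armcx5, Tceal6, Kcng2 and Kcng4 are outside that rule (picked once their values had been seen). Some genes under this rule are not reported here, and the Kv list was narrowed to the silent subunits after its values had been seen.

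Levels are CPM of the TMM-scaled library. Correlations used scipy 1.17.1, figures matplotlib 3.10.9. At 6 months libraries with the same number in Q20 and Q175 deviated together (8 pairs, r from 0.129 to 0.364 over 14538 genes, own number highest in 8 of 8). The numbers thus appear to pair them there. This pairing is read from the data, and the labels do not say what a number means. Alternatives were DESeq2 1.42.0, limma-trend 3.58.1 on log2(FPKM + 1) and log2(FPKM + 0.1), RLE factors, no low-count filter, a minimum log2 change of 0.3, a block for the replicate number, the L code of the library names, tissue scores, only the compared groups, all wild types as reference, lines left out and libraries left out one by one. The analysis was tested on simulated data. The counts simulated for the edgeR fit held no pairing of libraries and no differences in tissue content, so that test does not cover these.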

Additional observations from a re-analysis of the deposited data

Results flagged for a closer look

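Of 156 groups of 8 libraries (6 genes in 26 groups), 16 held a library far from the other 7, measured by its gap to the nearest of them over the range of the group. Chance would give about 1 in 20. For Htr2c these were the wild type M2 of the Q80 cages at 6 months (109 CPM, nearest 68.0), Q80 F3 at 6 months (103, nearest 67.1), Q140 M1 at 2 months (115, nearest 82.1), Q140 M3 at 10 months (78.4, nearest 90.3), the wild type M1 of the Q111 cages at 6 months (43.8, nearest 53.3) and Q80 M5 at 2 months (40.3, nearest 59.8). The first pair also had 5383 and 5301 CPM of Ttr, and Q80 M5 was among the 5 of low correlation. Without the first pair Htr2c in Q80 was 0.0078 above Q20 at 6 months and with it 0.13, called in neither case. Leaving out the 5 gave 0.28 for Htr2c in Q175 at 2 months, in place of 0.35.

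For Cntn6 they were Q92 M1 at 6 months (23.6 CPM, nearest 18.6), Q20 F4 at 2 months (23.3, nearest 20.6), Q92 M2 at 2 months (17.9, nearest 19.4), Q92 F1 at 10 months (21.8, nearest 23.8) and the wild type M2 of the Q80 cages at 6 months (14.2, nearest 16.4). Q92 M1 also had 109 CPM of the thalamic transporter gene Slc17a6 and Q20 F4 81.5 CPM, and their part was not tested. For Pcdh20 they were Q140 M1 at 2 months (18.9 CPM, nearest 12.5), Q140 F2 at 6 months (11.6, nearest 13.3) and Q175 M1 at 6 months (19.2, nearest 16.2). For Kcng1 it was Q80 F3 at 6 months (24.9 CPM, nearest 33.5), and for Klhl1 Q92 F3 at 2 months (15.1 CPM, nearest 11.6). Q140 M1 at 2 months thus stood high for both Pcdh20 and Htr2c.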

How the results depend on the processing

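Counts of the 6 genes called, their median at 2 months and the count of called relatives were recomputed in 305 pairs of a result and a setting. Of these, 284 did not move beyond 1.5 times (or, for the median, beyond 2 times the median SE of the 6 genes). Of the others, a minimum log2 change of 0.3 gave 0 in Q92 and 2 in Q111 at 6 months, 0 in Q80, 0 in Q92, 2 in Q111, 2 in Q140 and 1 in Q175 at 10 months, and against cage mates 1 in Q111 and 3 in Q140. Within 1.5 times, that setting also lost Klhl1 (adjusted p = 0.704) and Cntn6 in Q175 against Q20 at 6 months. It lost the same 2 genes in Q175 against cage mates, and Armcx6 and Cntn6 in Q140 against Q20 at 6 months. It also left 12 of the 68 called relatives. The Q92 count at 6 months, 1, became 2 on both FPKM scales and with all wild types as reference, and 0 with tissue scores or only the compared groups. At 10 months the Q80 count became 0 without a low-count filter or with only the compared groups, and the Q92 count 1 with the L code or only the compared groups. With RLE factors 1 gene differed among wild types. Without the 2 farthest libraries 2 pairs of genes were correlated in place of 1. For single genes 1471 of 1560 pairs kept direction and call. In 16 the direction turned, 15 of them not called under either setting, such as Klhl1 in the 10-month trend without Q20 (-0.0021) and, with all wild types as reference, Armcx6 (0.15) and Pcdh20 (0.28) in Q80 at 10 months. The called one was Kcng1 in the 10-month trend without Q20 (-0.004). On FPKM kelch-like genes called higher at 6 months were 18 and 17, and contactins 9. The cause was not tested.

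The replicate block left all 6-month counts of the 6 genes as they were. At 10 months the numbers did not pair the samples (7 pairs, r from -0.254 to 0.0903, own number highest in 2 of 7), and with the block Klhl1 stood at 0.18 in Q175 (adjusted p = 0.0392) and the count was 6 in place of 5. Leaving out 1 Q175 or Q20 library at a time gave 6 genes at 6 months and 4 to 5 at 10 months. Of the settings added after seeing the data, leaving out the 5 libraries of low correlation and the 2 next, Q111 F2 and the wild type F1, gave a median of 0.287 at 2 months. Leaving out the 2 richest in choroid plexus genes gave 0.323 at 2 months and left the 6-month counts as they were. Precision was lower at 2 months, with a median SE of 0.114 over all genes against 0.0598 at 6 months.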
